A study of Bos taurus with 10 samples.

Results

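The collagen genes were the 44 rows, of 21130 in the deposited table, whose symbol reads Col, a number, a and a number. By the kind of structure their proteins form, 11 were fibrillar, 6 were type IV chains of the basement membrane, 9 were fibril-associated, and 18 were other collagens. The table holds FPKM (fragments relative to transcript length and library size) for 7 libraries labelled as muscle of cattle of 24 months with the genotype MSTN+/-, against 3 libraries labelled wild type, of the same tissue and age. MSTN encodes myostatin, an inhibitor of muscle growth. No label ties a library to an animal, and the p-values below therefore cover the spread among libraries, part of which may be technical.

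Collagens are secreted proteins of chains wound into a triple helix, and they make up most of the fibrous matrix around cells. Fibrillar collagens, led by type I, form the tensile fibres of connective tissue and are made mainly by fibroblasts. Type IV chains form the sheet under epithelia, blood vessels and around each muscle fibre. Fibril-associated collagens sit on the surface of fibres, and others form beaded filaments (type VI), short-chain networks (VIII and X), anchoring fibrils (VII) or transmembrane proteins. In muscle, the collagen-making cells lie between the fibres.

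The contents of the table went against the labelled species and tissue, so none of the differences below is attributed to MSTN or to cattle muscle. Of the 44 collagen rows, 36 were described as Mus musculus genes, and all 44 named mouse in the description or in other annotation text. Over the whole table, 19415 of 21130 rows were described as Mus musculus genes. None of the collagen gene identifiers was in a RefSeq cattle table (assembly ARS-UCD2.0), although 43 symbols were, without regard to case. Mstn itself reached at most 0.18 FPKM in any MSTN+/- library, against 0.03 FPKM among the wild-type libraries, too low to check the genotype labels. Of 6 skeletal muscle markers, Ttn (titin) and the myosin gene Myh4 stayed below 1 FPKM in every library, and the summed level of the 6 was 4.30 to 7.91 FPKM in MSTN+/- libraries and 24.8, 6.65 and 6.88 FPKM in wild-type replicates 1, 2 and 3. Library totals were 444318 to 464418 FPKM in MSTN+/- libraries and 402716 to 454617 in wild type. Depth relative to MSTN+/- replicate 1, estimated from the steps of low values, was 1 to 1.14 in MSTN+/- libraries and 1.11 to 1.2 in wild type. Wild-type replicate 1 stood apart from replicates 2 and 3, so results are also given against replicate 1 alone and against replicates 2 and 3. The fit against replicate 1 alone has 1 wild-type library and so holds no spread among wild-type libraries. Its p-values rest on the spread of the MSTN+/- libraries and assume that replicate 1 varies like them. Its p-values and counts below are therefore a description.

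Markers of other cell types differed between the same libraries. The summed level of 10 fibroblast markers (Pdgfra, Pdgfrb, Thy1, Dcn, Lum, Prrx1, Twist2, Fap, Postn and S100a4) was 791 to 1341 FPKM in MSTN+/- libraries, against 1424, 178 and 88.2 FPKM in wild-type replicates 1, 2 and 3. Individual markers differed in order. Pdgfra, Pdgfrb, Thy1, Prrx1, Twist2, Postn and S100a4 were highest in wild-type replicate 1, above every MSTN+/- library. Pdgfrb, for example, was 17.4 to 33.5 FPKM in MSTN+/- libraries and 78.1, 2.53 and 2.02 FPKM in wild type. For Fap, replicate 1 lay within the MSTN+/- range. Dcn (decorin) was 169 to 324 FPKM in MSTN+/- libraries and 24.3, 33.0 and 8.27 FPKM in wild type, and Lum (lumican) was 45.2 to 99.9 FPKM in MSTN+/- libraries and 28.8, 11.7 and 4.66 FPKM in wild type, so for both the MSTN+/- libraries were above replicate 1 too. For 8 pluripotency markers the sums were 893 to 1477 FPKM in MSTN+/- libraries and 2.26, 2272 and 2583 FPKM in wild type. Among these, Pou5f1 was 633 to 848 FPKM in MSTN+/- libraries and 0.38, 346 and 533 FPKM in wild type. Nanog ran the other way against replicates 2 and 3, at 5.95 to 55.0 FPKM in MSTN+/- libraries and 0.91, 234 and 177 FPKM in wild type, as did Zfp42, Esrrb, Dppa4, Dppa5a and Tdgf1. Zfp42 was listed at 0 in wild-type replicate 1. Smooth muscle and pericyte markers summed to 109 to 199 FPKM in MSTN+/- libraries and 1504, 25.8 and 14.0 FPKM in wild type, with the actin gene Acta2 at 1402 FPKM in replicate 1. The part of these cell types in the collagen differences was not tested. In such bulk RNA, fewer cells of a type and less collagen RNA per cell cannot be told apart.

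Collagens together held 0.822% to 1.48% of all FPKM in the MSTN+/- libraries, with a median of 1.05%. In wild-type replicates 1, 2 and 3 they held 1.77%, 0.111% and 0.0973%. The wild-type libraries therefore lay on both sides of the MSTN+/- range, replicate 1 above it and replicates 2 and 3 below it. Col1a1 had the highest FPKM of the collagens in each MSTN+/- library and in wild-type replicates 1 and 2, and Col18a1 had it in replicate 3. In MSTN+/- libraries Col1a1 ranked 6th to 62nd of all genes, and it ranked 2nd in wild-type replicate 1 against 654th and 1076th in replicates 2 and 3. The make-up of the collagen total also differed. Fibrillar genes held 67.8% to 77.8% of it in MSTN+/- libraries, against 81.4%, 56.1% and 50.3% in wild-type replicates 1, 2 and 3. Type IV genes held 7.98% to 11.3% in MSTN+/- libraries and 5.23%, 7.38% and 7.30% in wild type. A single gene, Col18a1, held 0.231% to 0.994% of the collagen total in MSTN+/- libraries, 0.336% in wild-type replicate 1, and 20.7% and 26.5% in replicates 2 and 3.

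**Figure D1:**
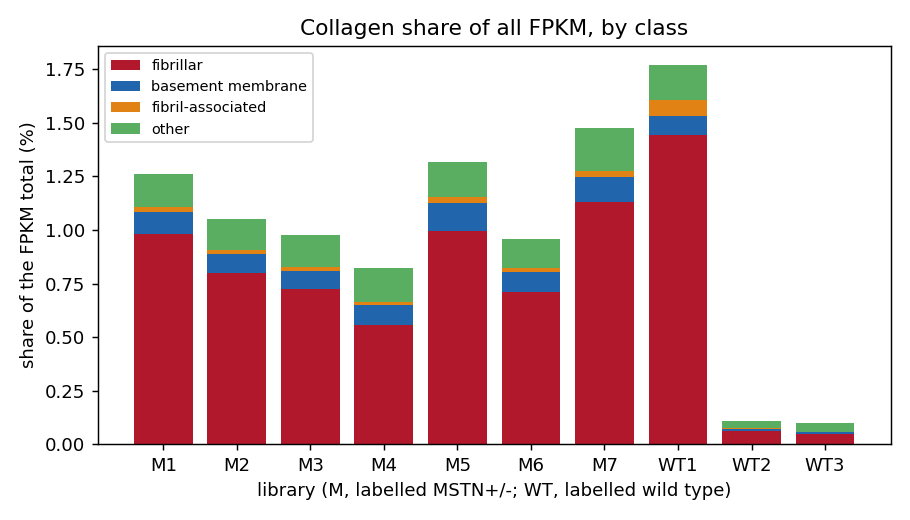
Share of each library's FPKM total held by collagen genes (bars from 0, in %), stacked by class, for the 7 MSTN+/- libraries (M1 to M7) and the 3 wild-type libraries (WT1 to WT3). MSTN+/- libraries hold 0.822% to 1.48%, WT1 holds 1.77%, and WT2 and WT3 hold 0.111% and 0.0973%.

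Of the 44 genes, 30 reached 1 FPKM in at least 3 libraries and were tested with limma on log2(FPKM + 1) together with all 14047 genes that passed this filter. The 14 others ranged from 0 to 4.18 FPKM over all libraries. A gene could pass the filter through 1 group alone. Col4a6, Col6a6, Col17a1, Col26a1 and Col28a1 did so, being below 1 FPKM in every wild-type library. Col8a2, Col11a1, Col14a1, Col15a1 and Col27a1 reached 1 FPKM in wild-type replicate 1 alone, so they too needed the MSTN+/- libraries. For these genes the calls and p-values below, and the counts that hold them, are a description. Against the 3 wild-type libraries, 19 collagens were higher and 1 was lower in MSTN+/- libraries at a limma adjusted p under 0.05, where 31.8% and 12.8% of all genes tested were called in those directions. The median log2 change was 1.92 for the 30 collagens and 0.17 for all genes tested, a shift that other scalings moved to between -0.06 and 0.14. Leaving out wild-type replicate 2 or replicate 3 left 11 collagens higher and none lower. The share of all genes called in those 2 fits is not given here. Leaving out replicate 1 gave 25 higher and 2 lower, where 42.2% and 31.9% of all genes tested were called so. With 1 wild-type library left out, no gene could pass the filter without MSTN+/- libraries, so the counts of these fits are a description.

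**Figure D2:**
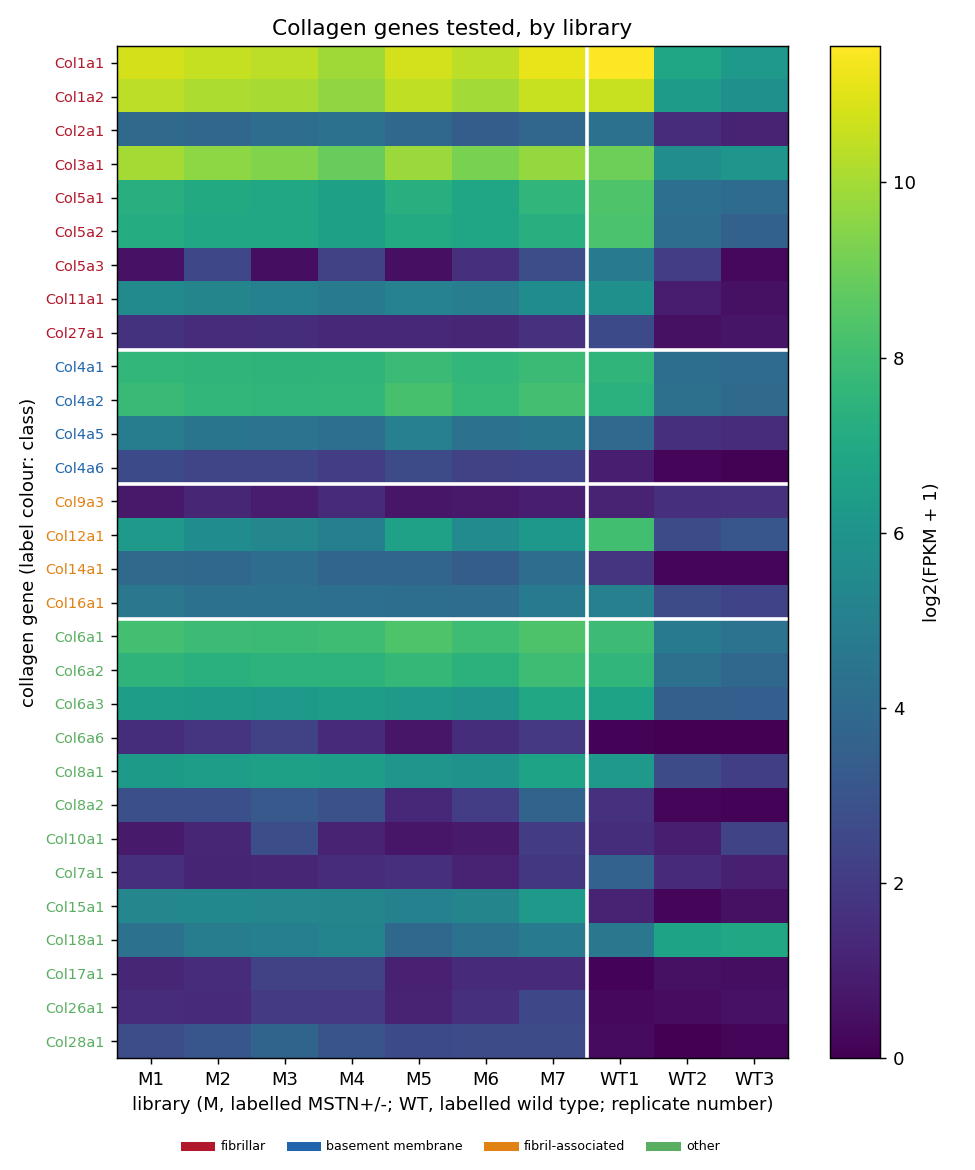
Level of the 30 collagen genes tested, as log2(FPKM + 1) (colour scale), in the 7 MSTN+/- libraries (M1 to M7) and the 3 wild-type libraries (WT1 to WT3), with gene labels coloured by class. WT2 and WT3 are both below all 7 MSTN+/- libraries for 25 of the 30 genes, and WT1 is above them for 9 genes and below them for 9.

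The position of each wild-type library against the MSTN+/- range separated the genes. Wild-type replicates 2 and 3 both lay below all 7 MSTN+/- values for 25 of the 30 collagens (42% of all genes tested lay there) and both above them for 2, Col9a3 and Col18a1 (31.7% of all genes). Wild-type replicate 1 lay above all 7 for 9 collagens (19.8% of all genes), within their range for 12 (30.2%) and below all 7 for 9 (50%). Of the 9 above, 6 were fibrillar genes. Those below were 3 type IV genes, the fibril-associated Col14a1 and 5 other collagens, and no fibrillar gene. For these last 9 genes the MSTN+/- values were all above the wild-type values, as for 25.2% of genes tested, and for no collagen were they all below, where 6.86% of genes tested were.

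Fibrillar genes were the most abundant class. Of 9 tested, Col1a2, Col2a1, Col3a1 and Col11a1 were higher in MSTN+/- libraries, none was lower and 5 did not pass the threshold, with a median log2 change of 1.63. Of all genes tested, 31.8% were called higher and 12.8% lower, so the count alone does not set this class apart. Without wild-type replicate 2 or 3, only Col3a1 was still higher, and without MSTN+/- replicate 1, 2 or 7, the count was 2. Col1a1 (gene 12842), which encodes the main chain of type I collagen, had a lowest, median and highest level of 969, 1471 and 2329 FPKM in MSTN+/- libraries, against 3017, 109.7 and 72.2 FPKM in wild-type replicates 1, 2 and 3. Wild-type values lay on both sides of the 7, and the log2 change of 2.40 ± 0.93 (SE) did not pass the threshold (limma adjusted p = 0.0574). It was -0.98 against replicate 1 (limma adjusted p = 0.0509) and 4.08 against replicates 2 and 3 (8.201e-07). Col1a2 (gene 12843), the partner chain of type I, had 809, 1117 and 1555 FPKM in MSTN+/- libraries and 1531, 81.7 and 55.4 FPKM in wild type. Its log2 change of 2.59 ± 0.82 (SE) passed (limma adjusted p = 0.0267), though not without wild-type replicate 2 (0.131) or 3 (0.143), and it was -0.40 against replicate 1 (0.297) and 4.09 against replicates 2 and 3 (2.723e-07).

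Col3a1 (gene 12825), the type III chain of reticular fibres, had 471, 761 and 1008 FPKM in MSTN+/- libraries and 511, 50.4 and 65.8 FPKM in wild type. Here replicate 1 lay inside the MSTN+/- range, near its low end. The log2 change was 2.60 ± 0.59 (SE; adjusted p by limma = 0.00591), and it was 0.52 against replicate 1 (0.242) and 3.65 against replicates 2 and 3 (8.957e-07). Col3a1 was the fibrillar gene whose call held under each library left out singly, with limma adjusted p at most 0.0356.

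The type V chains, which help to start fibres and limit their width, were highest in wild-type replicate 1. Col5a1 had 94.8, 127.9 and 192 FPKM in MSTN+/- libraries and 330.2, 17.7 and 15.3 FPKM in wild type. Col5a2 had 94.5, 121 and 157 FPKM in MSTN+/- libraries and 308, 16.3 and 11.2 FPKM in wild type. Neither passed against all 3 libraries, and the log2 changes were 1.53 and 1.63 (adjusted p by limma = 0.129 and 0.118). Both were lower in MSTN+/- libraries than in replicate 1, at log2 changes of -1.29 and -1.31. They were higher than in replicates 2 and 3, at 2.95 and 3.10 (adjusted p by limma = 1.63e-06 and 3.646e-07). Col5a3, a chain with a narrower distribution, was uneven within the group. Its levels in MSTN+/- replicates 1 to 7 were 0.50, 4.66, 0.35, 3.77, 0.38, 2.03 and 5.86 FPKM, and in wild-type replicates 1 to 3 they were 27.3, 3.22 and 0.20 FPKM. The log2 change was -0.87 (limma adjusted p = 0.438), turned to 0.35 without replicate 1 (0.678), and was -3.31 against replicate 1 alone (0.0161).

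Col11a1 and Col2a1, fibrillar chains best known from cartilage, were far less abundant per length than type I. Col11a1 had 25.8, 34.3 and 48.8 FPKM in MSTN+/- libraries and 54.2, 0.86 and 0.42 FPKM in wild type, and the log2 change was 2.80 ± 0.92 (SE; adjusted p by limma = 0.0310). Without wild-type replicate 2 or 3 it missed the threshold (limma adjusted p = 0.152 and 0.163), as it did without MSTN+/- replicate 1, 2 or 7 (0.0530, 0.0502 and 0.0548). Against wild-type replicates 2 and 3 it was 4.496 (limma adjusted p = 1.04e-07), and against replicate 1 it was -0.59 (0.120). Col2a1 had 9.67, 13.8 and 19.2 FPKM in MSTN+/- libraries and 19.0, 1.79 and 1.22 FPKM in wild type, with a log2 change of 1.61 (limma adjusted p = 0.0395). It missed the threshold without any 1 library other than MSTN+/- replicate 6 and wild-type replicate 1 (limma adjusted p = 0.0595 to 0.202), and under median-of-ratios (0.0713) and quantile scaling (0.0671). The other cartilage markers Acan, Matn1, Comp, Hapln1 and Sox9 summed to 2.95 to 13.7 FPKM in MSTN+/- libraries and 8.21, 3.80 and 2.39 FPKM in wild type. Acan (aggrecan) alone was 0.06 to 0.45 FPKM in MSTN+/- libraries and 1.36, 1.75 and 1.28 FPKM in wild type. Comp ran the other way, at 0.33 to 9.21 FPKM in MSTN+/- libraries and 0.34, 0.12 and 0.24 FPKM in wild type. Values of Comp, Matn1, Hapln1 and Sox9 overlapped between the labels, for Comp through MSTN+/- replicate 5 at 0.33 FPKM.

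Col27a1 had 1.34 to 2.19 FPKM in MSTN+/- libraries and 5.14, 0.45 and 0.55 FPKM in wild type. Its log2 change of 0.19 (limma adjusted p = 0.707) was -0.16 under quantile normalization, and it was -1.17 against replicate 1 (0.00224) and 0.87 against replicates 2 and 3 (6.543e-04). Col24a1 and Col11a2 were not tested. Col24a1 reached 4.18 FPKM in MSTN+/- replicate 5 and 1.50 FPKM in MSTN+/- replicate 1, and was at most 0.01 FPKM elsewhere. Col11a2 reached at most 1.49 FPKM.

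**Figure D3:**
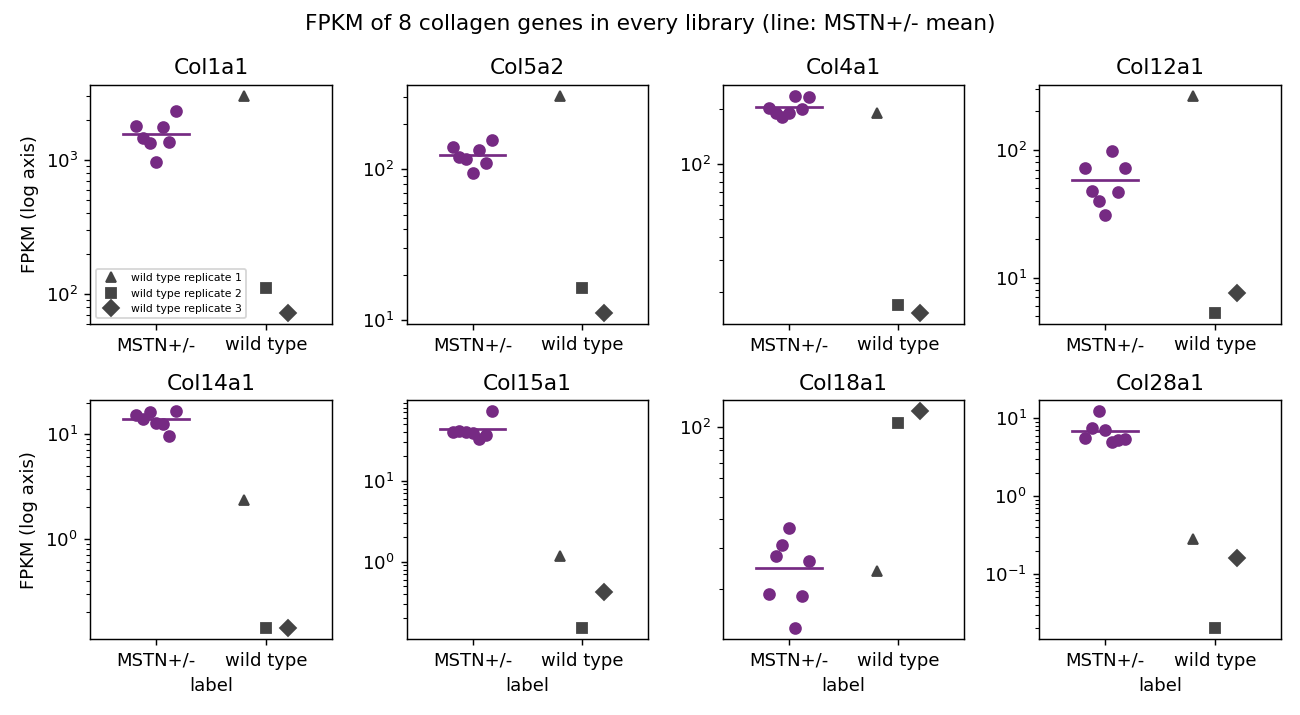
FPKM (log axis) of 8 collagen genes in every library, with the 7 MSTN+/- libraries at left (circles, line at their mean) and the 3 wild-type libraries at right (triangle, square and diamond for replicates 1, 2 and 3). Wild-type replicate 1 is above all MSTN+/- values for Col1a1, Col5a2 and Col12a1 and below them for Col14a1, Col15a1 and Col28a1, while replicates 2 and 3 are below them for all of these and above them for Col18a1.

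Type IV collagen genes of the basement membrane were all higher where they were tested. All 4 of 4 passed against the 3 wild-type libraries, where 31.8% of all genes tested were called higher. Among them, Col4a6 passed the filter through the MSTN+/- libraries alone. The median log2 change of the 4 was 2.32, and 3 of the 4 were still higher without wild-type replicate 2 or 3. Col4a2 (gene 12827) had 195, 217 and 293 FPKM in MSTN+/- libraries, against 168, 18.1 and 15.1 FPKM in wild-type replicates 1, 2 and 3. No values overlapped, and the log2 change was 2.62 ± 0.60 (SE; adjusted p by limma = 0.00578). Col4a1 (gene 12826), which encodes the chain it assembles with, had 180.4, 201 and 236 FPKM in MSTN+/- libraries and 189, 16.9 and 15.3 FPKM in wild type. Replicate 1 lay inside the range for Col4a1, whose log2 change was 2.42 ± 0.62 (SE; adjusted p by limma = 0.0107) and missed the threshold without wild-type replicate 2 (0.0621) or 3 (0.0618). Against replicate 1 alone, Col4a1 and Col4a2 had log2 changes of 0.10 and 0.44 (limma adjusted p = 0.605 and 0.127), and against replicates 2 and 3 of 3.58 and 3.71 (9.951e-09 and 5.705e-08).

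The X-linked chains were lower per length. Col4a5 had 17.95, 21.2 and 32.2 FPKM in MSTN+/- libraries and 14.5, 2.04 and 1.73 FPKM in wild type, and the log2 change was 2.22 ± 0.46 (SE; adjusted p by limma = 0.00365). Col4a6 had 3.33, 4.27 and 5.44 FPKM in MSTN+/- libraries and 0.94, 0.10 and 0.06 FPKM in wild type, and the log2 change was 2.001 ± 0.21 (SE; adjusted p by limma = 4.761e-05). For both, each MSTN+/- library was above each wild-type library. Col4a6 was the type IV gene that passed against replicate 1 alone, by 1.44 (limma adjusted p = 6.39e-04), where the change of Col4a5 was 0.61 (0.0966). Against replicates 2 and 3 they were 2.28 and 3.03 (limma adjusted p = 7.786e-07 and 5.891e-07). Col4a3 and Col4a4, chains of the kidney glomerulus and a few other membranes, stayed at or below 0.35 FPKM and were not tested.

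Fibril-associated collagens had few members above the filter. Of 4 tested, 1 was higher and 3 did not pass against the 3 wild-type libraries, and the median log2 change was 1.11. Of all genes tested, 31.8% were called higher and 12.8% lower. Col14a1 (gene 12818), which binds fibres of type I collagen, had 9.53, 13.9 and 16.5 FPKM in MSTN+/- libraries, against 2.35, 0.14 and 0.14 FPKM in wild-type replicates 1, 2 and 3. No values overlapped, with a log2 change of 3.16 ± 0.32 (SE; adjusted p by limma = 4.116e-05), and it was 2.12 against replicate 1 (1.59e-04) and 3.68 against replicates 2 and 3 (9.669e-08). Col12a1, a related protein of dense connective tissue, ran the other way in replicate 1. It had 30.9, 47.9 and 98.0 FPKM in MSTN+/- libraries and 265, 5.29 and 7.59 FPKM in wild type, and its log2 change of 1.19 did not pass (limma adjusted p = 0.330). It was -2.26 against replicate 1 (limma adjusted p = 0.00611) and 2.91 against replicates 2 and 3 (5.14e-05).

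Col16a1 had 16.5, 18.8 and 26.8 FPKM in MSTN+/- libraries and 31.6, 5.47 and 3.94 FPKM in wild type. Its log2 change was 1.02 (limma adjusted p = 0.101), -0.66 against replicate 1 (0.0415) and 1.87 against replicates 2 and 3 (7.986e-06). Col9a3, a chain of cartilage collagen IX, had 0.64 to 1.59 FPKM in MSTN+/- libraries and 1.19, 1.96 and 2.16 FPKM in wild type. Its log2 change of -0.48 missed the threshold as deposited (limma adjusted p = 0.0589) and passed under median-of-ratios (0.0165), TPM (0.0450) and quantile scaling (9.107e-04). It also passed without MSTN+/- replicate 4 (0.0321) or wild-type replicate 1 (0.0127). The 5 genes not tested, Col9a1, Col9a2, Col19a1, Col20a1 and Col22a1, stayed at or below 2.82 FPKM.

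Among the other collagens, 10 of 13 tested were higher and 1, Col18a1, was lower in MSTN+/- libraries against the 3 wild-type libraries. The shares of all genes tested called in those directions were 31.8% and 12.8%. Of the 10, Col6a6, Col8a2, Col15a1, Col17a1, Col26a1 and Col28a1 needed the MSTN+/- libraries to pass the filter, so this count is a description. Without wild-type replicate 2 or 3, only those 6 were higher and none was lower. Type VI chains, which form a beaded filament close to the cell surface in muscle and most other tissues, were the most abundant of them. Col6a1 had 233, 253 and 327 FPKM in MSTN+/- libraries and 239.7, 27.2 and 20.4 FPKM in wild type. Col6a2 had 162, 178 and 250.0 FPKM in MSTN+/- libraries and 193, 18.2 and 14.1 FPKM in wild type, and Col6a3 had 64.3, 83.9 and 116 FPKM in MSTN+/- libraries and 102, 10.3 and 9.85 FPKM in wild type. For all 3 chains, wild-type replicate 1 lay within the MSTN+/- range and replicates 2 and 3 far below it. Their log2 changes were 2.37, 2.30 and 1.84 (limma adjusted p = 0.00994, 0.0150 and 0.0285). The calls were lost without wild-type replicate 2 (limma adjusted p = 0.0569, 0.0825 and 0.146) or 3 (0.0556, 0.0842 and 0.148), and that of Col6a3 without MSTN+/- replicate 7 (0.0521) and under median-of-ratios scaling (0.0531). None passed against replicate 1 alone, at 0.17, -0.04 and -0.31. Col6a6 was much lower per length, at 0.63 to 3.76 FPKM in MSTN+/- libraries and 0.09, 0 and 0 FPKM in wild type. Its log2 change of 1.54 passed (limma adjusted p = 0.00172). Col6a6 passed the filter through the MSTN+/- libraries alone, so this call is a description.

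The multiplexins, collagens of the basement membrane zone with long interrupted helices, held the largest log2 increase among the 20 collagens called and the single decrease. Col15a1 (gene 12819), found where basement membranes meet fibres, had 32.9, 39.9 and 71.9 FPKM in MSTN+/- libraries, against 1.18, 0.15 and 0.42 FPKM in wild-type replicates 1, 2 and 3. Its log2 change was 4.81 ± 0.25 (SE; adjusted p by limma = 4.34e-07). It was 4.29 against replicate 1 alone (1.3e-05) and 5.06 against replicates 2 and 3 (8.913e-08). Col18a1 (gene 12822), the source of the fragment endostatin, had 13.5, 26.4 and 36.5 FPKM in MSTN+/- libraries and 23.9, 104.3 and 117 FPKM in wild type. Replicate 1 lay within the MSTN+/- range and replicates 2 and 3 above it. The log2 change of -1.46 ± 0.46 (SE; adjusted p by limma = 0.0271) was lost without wild-type replicate 2 (0.129) or 3 (0.139), and it was -0.02 against replicate 1 (0.971) and -2.18 against replicates 2 and 3 (1.009e-04).

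Short-chain collagens VIII and X form hexagonal networks. Col8a1, made by vessel wall and corneal endothelial cells, had 60.2, 86.1 and 103.4 FPKM in MSTN+/- libraries and 74.2, 5.20 and 3.49 FPKM in wild type, and the log2 change was 2.67 (limma adjusted p = 0.0117), a call lost without wild-type replicate 2 or 3 (0.0653 and 0.0654). Col8a2 had 1.44, 6.17 and 11.8 FPKM in MSTN+/- libraries and 2.15, 0.14 and 0.07 FPKM in wild type, and the log2 change was 2.04 (limma adjusted p = 0.00859). Neither passed against replicate 1 alone, at 0.12 and 1.03 (limma adjusted p = 0.734 and 0.255). Col10a1, the chain of hypertrophic cartilage, had 0.64 to 5.80 FPKM in MSTN+/- libraries and 1.89, 0.98 and 4.23 FPKM in wild type, and the log2 change of -0.26 did not pass (limma adjusted p = 0.670).

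Col28a1, a type VI-like collagen of peripheral nerve, had 4.96, 5.62 and 12.3 FPKM in MSTN+/- libraries and 0.28, 0.02 and 0.16 FPKM in wild type. The groups did not overlap, and its log2 change of 2.73 ± 0.24 (SE; adjusted p by limma = 1.571e-05) was close to that against replicate 1 alone (2.57, limma adjusted p = 5.96e-04) and against replicates 2 and 3 (2.81, 7.77e-06). Col26a1 and the transmembrane collagen Col17a1, which anchors epithelial cells, also lay above every wild-type library. They had 1.16 to 4.60 and 1.09 to 3.83 FPKM in MSTN+/- libraries, against at most 0.48 and 0.42 FPKM in wild type, and the log2 changes were 1.31 and 1.25 (adjusted p by limma = 0.00291 and 0.00551). With library weights both missed the threshold (limma adjusted p = 0.0552 and 0.0967). Beside Col17a1, the epithelial markers Epcam, Cdh1, Krt8, Krt18 and Krt19 summed to 98.5 to 209 FPKM in MSTN+/- libraries and 34.0, 222 and 377 FPKM in wild type. Of the 5, Krt8 and Krt19 were higher in MSTN+/- libraries against the 3 wild-type libraries, with log2 changes of 2.74 and 2.41 (adjusted p by limma = 0.0119 and 0.00571), none was lower, and Epcam and Cdh1 were lower than in replicates 2 and 3, at -2.55 and -2.86 (4.181e-05 and 3.495e-05). The part of epithelial cells in the difference of Col17a1 was not tested.

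Col7a1, the chain of the fibrils that anchor the epidermis, was highest in wild-type replicate 1. It had 1.22 to 2.61 FPKM in MSTN+/- libraries and 11.4, 1.64 and 1.05 FPKM in wild type, and the log2 change of -0.58 did not pass (limma adjusted p = 0.316) and was 0.22 without replicate 1 (0.340). Against replicate 1 alone it was -2.20 (limma adjusted p = 2.12e-04). Col6a4, Col6a5, Col13a1, Col23a1 and Col25a1 were not tested and stayed at or below 1.42 FPKM. Col6a4 was the symbol without a cattle counterpart of the same name.

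Set side by side, the comparisons with wild-type replicate 1 and with replicates 2 and 3 gave different counts. Both share the 7 MSTN+/- libraries, so they are not independent, and whether wild-type replicate 1 differs from replicates 2 and 3 was not tested. Against replicate 1 alone, a fit that assumes this library varies like the others, 7 collagens were higher and 7 lower, with 33.7% and 10.8% of all genes tested called in those directions and a median log2 change of -0.03. The 7 lower were the fibrillar Col5a1, Col5a2, Col5a3 and Col27a1, the fibril-associated Col12a1 and Col16a1, and Col7a1. Against replicates 2 and 3, 25 were higher and 2 lower, with 42.2% and 31.9% of all genes called and a median of 2.91. The filter of both fits was applied to the libraries left, so no gene could pass it without MSTN+/- libraries. Col4a6, Col6a6, Col8a2, Col11a1, Col14a1, Col15a1, Col17a1, Col26a1, Col27a1 and Col28a1 were below 1 FPKM in both replicates 2 and 3. Their calls there, and the count that holds them, are a description. The class medians against replicate 1 were -0.98 for fibrillar, 0.52 for type IV, -0.41 for fibril-associated and 0.17 for other collagens, and against replicates 2 and 3 they were 3.10, 3.31, 2.39 and 2.54. The 7 genes higher than in replicate 1 were Col4a6, Col14a1, Col6a6, Col15a1, Col17a1, Col26a1 and Col28a1, with log2 changes of 1.44 to 4.29, beside 1.13 to 5.06 against replicates 2 and 3. Among these genes, Col4a6, Col6a6, Col17a1, Col26a1 and Col28a1 stayed below 1 FPKM in every wild-type library. Col14a1 and Col15a1 reached 1 FPKM only in wild-type replicate 1, at 2.35 and 1.18 FPKM. All of them therefore needed the MSTN+/- libraries, where they are high, to pass the filter. Their count and p-values are a description.

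**Figure D4:**
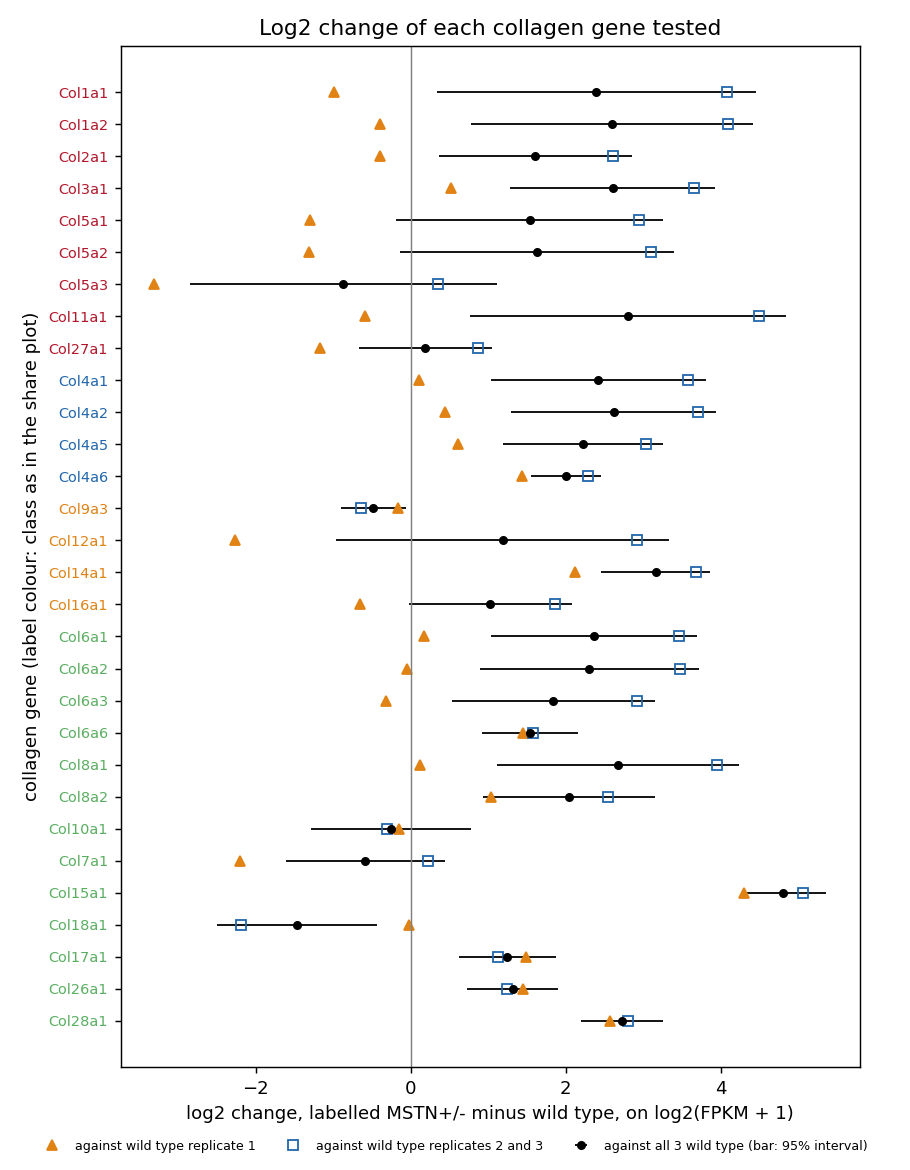
Log2 change of the 30 collagen genes tested (MSTN+/- minus wild type, on log2(FPKM + 1)), against all 3 wild-type libraries (black circles, with 95% intervals not adjusted for multiple testing), against wild-type replicate 1 alone (triangles) and against replicates 2 and 3 (open squares), with gene labels coloured by class. The symbols lie far apart for Col1a1 (-0.98 and 4.08) and Col12a1 (-2.26 and 2.91) and close together for Col15a1 (4.29 and 5.06) and Col28a1 (2.57 and 2.81).

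FPKM ratios between collagen genes within a library do not depend on how libraries are scaled, apart from the 1 FPKM added before the log, and 8 pairs were tested by exact permutation, two-sided, over the 120 ways of choosing 3 of 10 libraries (smallest possible p = 0.00833). The ratio of Col1a2 to Col1a1, the chains of the type I trimer, was 0.668 to 0.835 by FPKM in MSTN+/- libraries, against 0.508, 0.745 and 0.768 in wild-type replicates 1, 2 and 3. The mean log2 ratio of (FPKM + 1) was 0.20 higher in MSTN+/- libraries (exact permutation adjusted p = 0.283). Col3a1 to Col1a1 was 0.365 to 0.565 in MSTN+/- libraries and 0.170, 0.459 and 0.911 in wild type, an FPKM ratio below all 7 in replicate 1 and above them in replicate 3 (exact permutation adjusted p = 0.558). Col5a2 to Col5a1, Col6a2 to Col6a1 and Col4a5 to Col4a1 differed in mean log2 ratio by 0.09, -0.06 and -0.20 (exact permutation adjusted p = 0.514 for each).

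Pairs under the threshold were Col4a2 to Col4a1, Col6a3 to Col6a1 and Col18a1 to Col15a1, each with an exact permutation adjusted p of 0.0444. All pairs were chosen with earlier results known, so these p-values are a description. Col4a2 to Col4a1 by FPKM was 1.066 to 1.24 in MSTN+/- libraries and 0.888, 1.069 and 0.988 in wild type, so the FPKM ratios overlapped. With 1 added to each FPKM, the 7 log2 ratios lay barely above the 3, with a lowest of 0.0915 in MSTN+/- libraries and a highest of 0.0905 in wild type, and the means differed by 0.20. Col6a3 to Col6a1 was 0.228 to 0.357 in MSTN+/- libraries and 0.427, 0.378 and 0.484 in wild type, a log2 difference of -0.53. Col18a1 to Col15a1 was 0.367 to 0.954 in MSTN+/- libraries and 20.3, 696 and 279 in wild type, a log2 difference of -6.27. This pair sets the 1 collagen called lower over that with the largest log2 increase. The adjustment ran over all pairs, this one included. The adjusted p of Col4a2 to Col4a1 and of Col6a3 to Col6a1 therefore depends on it, and whether they pass without it was not tested. Wild-type Col15a1 was 1.18, 0.15 and 0.42 FPKM, so the ratios of 696 and 279 rest on values near 0. With a pseudocount of 0.1 all 3 pairs missed the threshold (exact permutation adjusted p = 0.0667). Without any 1 wild-type library the smallest exact permutation p is 0.0278, and the adjusted p of the 3 pairs was 0.0741 to 0.167, so at that size the test says little about stability. The differences were then 0.13 to 0.26 for Col4a2 to Col4a1, -0.60 to -0.43 for Col6a3 to Col6a1 and -7.25 to -5.75 for Col18a1 to Col15a1. Without 1 of the MSTN+/- libraries the exact permutation adjusted p was 0.0318 to 0.0635, and each pair missed the threshold without replicate 3 or 4.

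**Figure D5:**
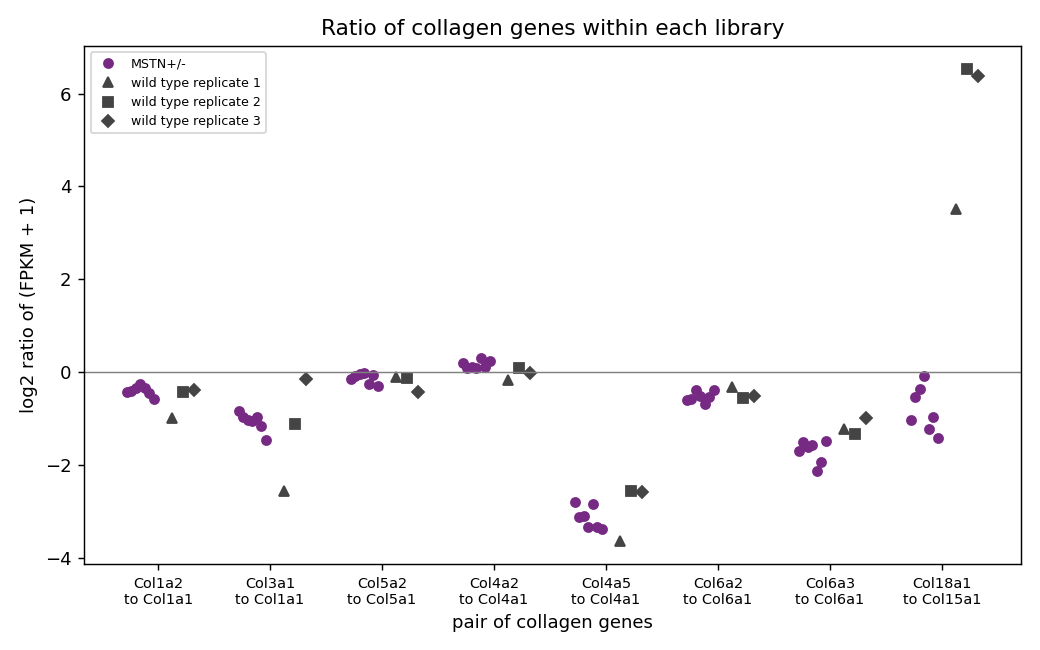
Log2 ratio of (FPKM + 1) for 8 pairs of collagen genes in the 7 MSTN+/- libraries (circles) and in wild-type replicates 1, 2 and 3 (triangle, square and diamond). The Col18a1 to Col15a1 ratio is -1.41 to -0.07 in MSTN+/- libraries and 3.52, 6.52 and 6.38 in wild type, while the Col5a2 to Col5a1 ratio is -0.29 to -0.004 in MSTN+/- libraries and -0.10, -0.12 and -0.42 in wild type.

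Several collagen genes are neighbours. In the cattle annotation, with no other protein-coding gene between them, the pairs COL4A1 and COL4A2, COL4A3 and COL4A4, COL4A5 and COL4A6, COL6A1 and COL6A2, COL6A5 and COL6A6, COL3A1 and COL5A2, and COL9A1 and COL19A1 lie side by side. Neighbours were not always at like levels here. Col5a2 in wild-type replicate 1 was above all 7 MSTN+/- libraries, while Col3a1 was within their range. Col6a6 reached 3.76 FPKM in MSTN+/- libraries, whereas Col6a5 stayed at or below 0.20 FPKM in all 10 libraries.

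The spread among the MSTN+/- libraries differed between genes. Among the 22 collagens tested with a mean of at least 5 FPKM in either group, the highest MSTN+/- value was 1.31 times the lowest for Col4a1, 2.40 times for Col1a1, 3.17 times for Col12a1, 8.16 times for Col8a2 and 16.7 times for Col5a3. MSTN+/- replicate 7 was highest for 13 of the 22, among them 6 of 8 fibrillar genes, and replicate 4 was lowest for 8, again including 6 of 8 fibrillar genes. The fibroblast marker sum was also highest in replicate 7, at 1341 FPKM, and lowest in replicate 4, at 791 FPKM. Pluripotency markers summed to 1283 and 1477 FPKM in these libraries. Replicate 5 was highest for 5 genes, Col4a1, Col4a2, Col4a5, Col6a1 and Col12a1, and lowest for Col8a2, Col15a1, Col18a1 and Col28a1. The part of the marker levels in this order was not tested.

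Collagen chains need a set of enzymes and chaperones for hydroxylation, folding, export, cleavage and cross-linking. Of 38 such genes, 35 were tested, and 15 were higher and 1 lower in MSTN+/- libraries, with a median log2 change of 0.94, where 31.8% and 12.8% of all genes tested were called in those directions. Without wild-type replicate 2 or 3, 8 were higher, and without replicate 1 the count was 31, where 42.2% of all genes tested were higher. Pcolce, whose protein speeds the removal of the C-terminal propeptide, had 624, 711 and 829.6 FPKM in MSTN+/- libraries and 405, 75.8 and 89.6 FPKM in wild type, and the log2 change was 2.34 ± 0.42 (SE; adjusted p by limma = 0.00154). P3h2, a prolyl 3-hydroxylase, had 2.90, 4.40 and 6.72 FPKM in MSTN+/- libraries and 2.17, 0.31 and 0.35 FPKM in wild type. Its log2 change was 1.63 (limma adjusted p = 0.00172). P3h2 reached 1 FPKM in wild-type replicate 1 alone, so it needed the MSTN+/- libraries to pass the filter. So did Adamts3, below 1 FPKM in every wild-type library, and P4ha3 and Loxl4, which reached 1 FPKM only in wild-type replicates 1 and 2. These calls, and the count of 15 that holds them, are a description. Loxl4, a cross-linking oxidase, had 15.2, 19.9 and 22.4 FPKM in MSTN+/- libraries and 10.4, 1.20 and 0.58 FPKM in wild type, and the log2 change was 2.58 (limma adjusted p = 0.00212). Crtap, a partner of prolyl 3-hydroxylase, had 84.9, 97.3 and 119 FPKM in MSTN+/- libraries and 72.5, 42.7 and 40.1 FPKM in wild type, and the log2 change was 0.93 (limma adjusted p = 0.00283).

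Pcolce, P3h2, Loxl4 and Crtap were named for the smallest p among the higher genes, and in all 4 each MSTN+/- library was above each wild-type library. Of the 35 tested, 8 lay so and 1 had all MSTN+/- values below. Of all genes tested, 25.2% and 6.86% did, so this does not set the list apart. The 1 lower gene was Pcolce2, a relative of Pcolce, at 5.22, 7.08 and 7.36 FPKM in MSTN+/- libraries and 7.71, 11.4 and 8.13 FPKM in wild type. Its log2 change of -0.42 (limma adjusted p = 0.0468) missed the threshold without any 1 library other than wild-type replicate 1 (0.0539 to 0.227). Against replicate 1 alone, 4 of the 35 were higher and 14 lower (33.7% and 10.8% of all genes tested), with a median of -0.23, and against replicates 2 and 3, 31 were higher and 2 lower, with a median of 1.68.

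Of 9 collagen receptors with a row, 7 were tested and 4 were higher in MSTN+/- libraries, as were 31.8% of all genes tested. Ddr1, a receptor kinase that binds type IV and fibrillar collagens, had 30.3, 33.3 and 37.2 FPKM in MSTN+/- libraries and 21.7, 11.8 and 14.1 FPKM in wild type, and the log2 change was 1.07 ± 0.16 (SE; adjusted p by limma = 4.7e-04). Itga10, an integrin subunit known from cartilage, had 0.96 to 2.14 FPKM in MSTN+/- libraries and 0.31, 0.73 and 0.47 FPKM in wild type. Its log2 change was 0.69 (limma adjusted p = 0.0119), a call lost under quantile normalization (0.151) and with library weights (0.122). Itga10 passed the filter through the MSTN+/- libraries alone, so its call is a description. Against replicate 1 alone 2 receptors were higher and 2 lower, with 33.7% and 10.8% of all genes tested called so, and against replicates 2 and 3, 6 were higher and none lower, with 42.2% and 31.9%.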

How the data were processed

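The authors deposited 1 table of FPKM per gene for 10 RNA libraries, rounded to 2 decimals, and per the labels' protocols total RNA was extracted with Trizol and made into libraries with Illumina kits. The aligner, annotation and genome build were not given in the sources used here. Depth is unknown beyond the relative depth, so no interval from counting error is printed. The collagens, lists and chain pairs were chosen with earlier results of these data known. Values were tested as log2(FPKM + 1), which understates changes of low genes, with limma 3.58.1 (R 4.3.3, empirical Bayes with a trend). With all 10 libraries, the fit covered the 14047 genes that reached 1 FPKM in 3 or more libraries. It then had 8 residual degrees of freedom, and fewer where libraries were left out. In those fits the filter was applied to the libraries left. It kept 13732 genes against wild-type replicate 1 alone and 13965 against replicates 2 and 3. Benjamini-Hochberg adjustment ran over all genes tested, with a threshold of 0.05. Contrasts with wild-type replicate 1 and with replicates 2 and 3 leave out the other wild-type libraries. Replicate numbers follow accession order. Chain ratios used exact permutation tests, adjusted over 8 pairs. Genes with a mean of at least 5 FPKM in either group are given as the lowest, median and highest of the 7 MSTN+/- libraries and each wild-type value, others by their range, and from the biosynthesis and receptor lists the 4 and 2 with the smallest p in a direction were named. The limma fit was tested on simulated data. Figures were drawn with matplotlib 3.10.9.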

Additional observations from a re-analysis of the deposited data

Results flagged for a closer look

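Among 38 values examined in the 7 MSTN+/- libraries, 3 had 1 library far from the others, by a gap to the nearest library that passes Dixon's 95% limit for 7 values, which chance passes in about 1 in 20 groups. Col15a1 was 71.9 FPKM in MSTN+/- replicate 7 and 40.6 FPKM in the next highest library, a gap of 0.803 of the range. Col6a3 was 116 FPKM in MSTN+/- replicate 7 and 85.5 FPKM in the next, a gap of 0.588 of the range. Col28a1 was 12.3 FPKM in MSTN+/- replicate 3 and 7.53 FPKM in the next, a gap of 0.651 of the range.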

How the results depend on the processing

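No paired analysis was possible because the labels give no replicate numbers that could pair libraries. Leaving out 1 library gave 11 to 25 collagens higher and 0 to 2 lower, with 1 to 8 fibrillar, 1 to 3 fibril-associated and 6 to 10 other collagens higher, 0 to 1 lower in each of the last 2 classes, and 8 to 31 biosynthesis genes higher and 0 to 2 lower. Median log2 changes then ranged from 1.46 to 2.91 for collagens, 1.02 to 3.10 for fibrillar, 1.83 to 3.31 for type IV, 0.46 to 2.39 for fibril-associated and 1.52 to 2.54 for other collagens. Log2 changes ranged from -0.17 to 0.87 for Col27a1, -1.93 to 0.35 for Col5a3, -1.08 to 0.22 for Col7a1 and -0.58 to 0.12 for Col10a1. Log2 ratio differences ranged from 0.13 to 0.26 for Col4a2 to Col4a1, -0.60 to -0.43 for Col6a3 to Col6a1, -7.25 to -5.75 for Col18a1 to Col15a1, -0.44 to 0.78 for Col3a1 to Col1a1, -0.12 to 0.008 for Col6a2 to Col6a1 and -0.012 to 0.15 for Col5a2 to Col5a1. With wild-type replicate 1 alone, 7 collagens were higher and 7 lower, with 0 fibrillar, 1 type IV and 5 other collagens higher, 4 fibrillar and 2 fibril-associated lower, and 4 biosynthesis genes higher and 14 lower. Medians were then -0.032 for collagens, -0.98 fibrillar, 0.52 type IV, -0.41 fibril-associated and 0.17 other. Changes that turned negative there were Col1a1 -0.98, Col1a2 -0.40, Col2a1 -0.40, Col5a1 -1.29, Col5a2 -1.31, Col11a1 -0.59, Col27a1 -1.17, Col12a1 -2.26, Col16a1 -0.66, Col6a2 -0.042 and Col6a3 -0.31. Ratio differences there were -0.018 for Col5a2 to Col5a1, 0.34 for Col4a2 to Col4a1, 0.50 for Col4a5 to Col4a1, -0.48 for Col6a3 to Col6a1 and -4.31 for Col18a1 to Col15a1, where no p below 0.125 was possible. Library weights, whose estimate did not fully converge, gave 8 fibrillar, 3 fibril-associated and 29 biosynthesis genes higher, medians of 2.76 for collagens, 3.10 fibrillar, 3.22 type IV, 2.17 fibril-associated and 2.44 other, and changes of 0.90 for Col5a3 and 0.17 for Col7a1. TPM, median-of-ratios and quantile scaling each gave 2 collagens lower, 1 of them fibril-associated. Median-of-ratios and quantile scaling gave 2 biosynthesis genes lower, and quantile normalization gave -0.16 for Col27a1. No filter gave 3 fibril-associated genes higher, 0 biosynthesis genes lower, and medians of 0.40 for fibril-associated and 1.28 for other collagens, over more genes tested. A mean of at least 5 FPKM, with fewer genes tested, gave 5 other collagens higher and a median of 2.33. A pseudocount of 0.1 gave a median of 2.50 for other collagens and ratio differences of 0.20 for Col4a2 to Col4a1, 0.085 for Col4a5 to Col4a1, -0.49 for Col6a3 to Col6a1 and -7.74 for Col18a1 to Col15a1. Beyond the fewer libraries or genes named, the cause was not tested.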
